A study of Arabidopsis thaliana with 11 samples.

Results

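The transcriptome of the Arabidopsis thaliana mutant xpo4-2 was set against that of wild type, over all genes measured. The comparison took the 5 libraries whose titles name xpo4-2 (n = 2) or wild type, which is Col-0 (n = 3), out of 11 libraries in the series. The other 6 libraries came from the double mutant xpo4-2 cpr5 (n = 3) and from cpr5 (n = 3), and they served for the estimate of spread and for a second look at the xpo4-2 mutation. Every library was made from whole seedlings at 10 days of age, grown on Murashige and Skoog medium with sucrose and left untreated, so each value is an average over root, hypocotyl, cotyledons and young leaves. The submitters' design text speaks of triplicates, and 2 xpo4-2 libraries were analysed here. The labels do not say that replicates came from separate sowings, so each p-value covers the spread seen among these libraries, part of which may be technical. They also do not say what kind of lesion xpo4-2 is or give a second allele.

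Exportin-4 belongs to the karyopherins, transport receptors that bind cargo proteins and the small GTPase Ran and carry them through the nuclear pore. In animals exportin-4 is known to carry the translation factor eIF5A and some transcription factors. CPR5, mutated in the other lines, is a membrane protein of the plant nuclear pore, and cpr5 mutants are known for constitutive salicylic acid defence. The question asked here is what the xpo4-2 mutation changes in otherwise wild-type seedlings.

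Library totals were 19834595 and 23088104 counts in xpo4-2, and 17871531 to 19279951 in wild type. The xpo4-2 libraries correlated with each other across genes at r = 0.947, and the wild-type libraries at 0.898 to 0.940. Genes are not independent replicates, and these values are descriptions. The median absolute log2 difference between the xpo4-2 libraries was 0.303, and it was 0.336, 0.341 and 0.476 between pairs of wild-type libraries. Between single xpo4-2 and single wild-type libraries it ran from 0.371 to 0.478. The difference between the xpo4-2 mean and the wild-type mean had a median size of 0.330 on the same scale. Means vary less than single libraries, so this last value is not comparable with the pair differences. In a principal component analysis of the 5 libraries, the genotypes separated on the second component (30.7% of variance), with xpo4-2 at 63.6 and 60.8 and wild type at -22.1, -21.3 and -81.1. The first component (38.3%) spread the wild-type libraries over the range in which the mutant libraries lay.

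XPO4 (AT3G04490, chromosome 3, 1200331 to 1209970, TAIR10.1), the targeted gene, had 1.00 and 4.8 CPM in xpo4-2, against 19.6, 21.3 and 23.5 CPM in wild type. CPM are counts per unit of library size after TMM scaling, not divided by gene length, so levels are compared within a gene only. All mutant values were below all wild-type values. The log2 fold change was -2.87 (SE 0.907), and it did not pass the test, at an adjusted p of 0.121. The pass mark throughout was a Benjamini-Hochberg adjusted p under 0.05 in edgeR's quasi-likelihood test. In the deposited transcript table the main XPO4 model stood at 0.228 and 0.235 TPM (transcript abundance scaled by length and library) in xpo4-2, against 4.52, 4.74 and 5.03 TPM in wild type. A second model stood at 0.948 TPM in xpo4-2 replicate 2 and at 0 in xpo4-2 replicate 1, against 0.896 TPM in wild-type replicate 3 and 0 or nearly 0 in the other wild-type libraries. CPR5 had 12.5 and 14.3 CPM in xpo4-2, against 8.08, 11.4 and 13.3 in wild type, and it did not pass (adjusted p = 0.499).

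Of 21580 genes tested, 163 were higher in xpo4-2 (0.755%) and 423 were lower (1.96%). Falls thus outnumbered rises. In all 586 of these genes the xpo4-2 libraries lay wholly outside the wild-type range. Over all genes tested, that was so for 16.4% of genes in the higher direction and 15.4% in the lower. At least 2-fold differences were found for 84 of the higher and 289 of the lower genes, and at least 4-fold differences for 31 and 77. The median log2 fold change over all genes was 0.02. The plot of fold change against level shows the falls as the denser cloud, and a few genes far from it in either direction.

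These counts rested on a spread estimated from all 4 genotypes. With the 5 compared libraries alone, edgeR called 0 genes higher and 1 lower, the nitrate transporter NRT1.7, while 2637 genes had an unadjusted p under 0.05. Without xpo4-2 replicate 2 the counts were 12 higher and 44 lower, without xpo4-2 replicate 1 they were 42 and 76, and without wild-type replicate 2 they were 70 and 156. Without cpr5 replicate 1 they were 97 and 295, without cpr5 replicate 2 they were 63 and 217, and without cpr5 replicate 3 they were 74 and 262. Without xpo4-2 cpr5 replicate 1 they were 92 and 303, and without xpo4-2 cpr5 replicate 2 they were 122 and 369. The counts were higher in 3 cases, at 201 and 545 without wild-type replicate 1, 225 and 529 without wild-type replicate 3, and 220 and 524 without xpo4-2 cpr5 replicate 3. DESeq2 called 649 higher and 1233 lower. Of 75 genes named here that passed, 14 passed whichever of the 11 libraries was left out. These were NRT1.7, UAP56a, UAP56b, CPL2, GCL1, IAR3, CYP94B1, AT1G75945, AT1G80130, AT2G38790, AT4G33720, AT4G36648, AT5G39020 and AT5G53420.

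**Figure D1:**
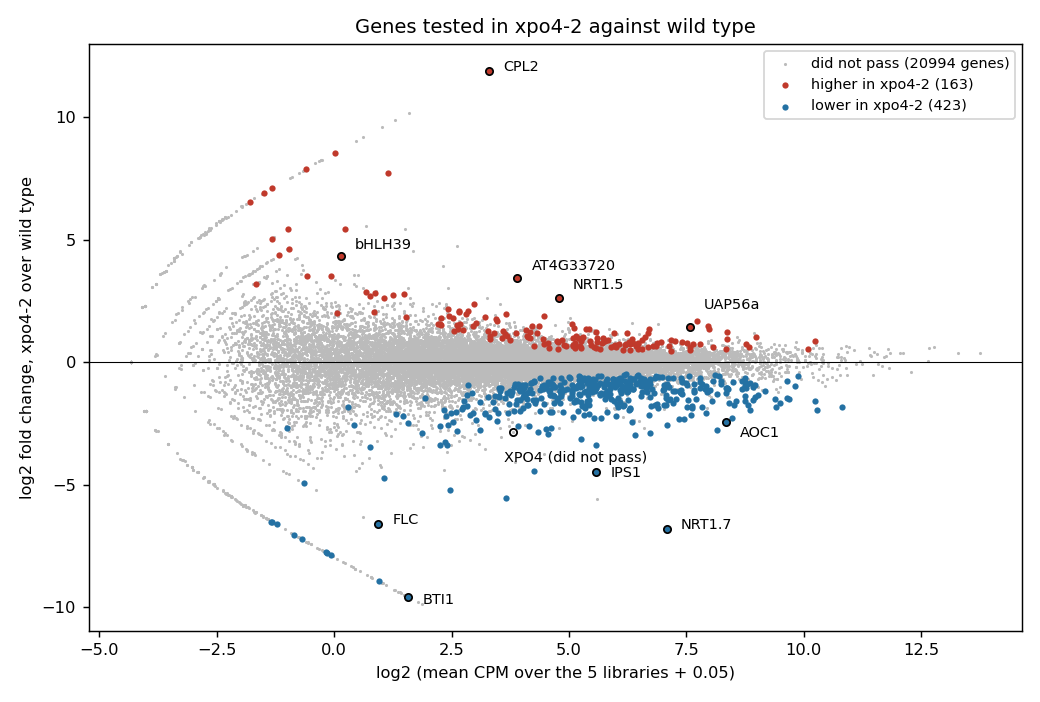
Each point is 1 of the 21580 genes tested, with log2 mean CPM over the 5 libraries (plus 0.05) on the horizontal axis and the log2 fold change of xpo4-2 over wild type on the vertical axis. Red points are the 163 genes higher in xpo4-2, blue points the 423 lower, grey points did not pass, and NRT1.7, IPS1, FLC, BTI1 and CPL2 lie far outside the main cloud.

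The list with the most falls was that of jasmonate. Jasmonates are lipid-derived hormones of wounding and defence, made in the plastid and peroxisome by the LOX, AOS, AOC and OPR3 enzymes. The active form, a conjugate with isoleucine, leads the receptor COI1 to mark JAZ repressors for destruction, which frees MYC transcription factors. Of the 27 genes in the list of jasmonate synthesis and response, 13 fell in xpo4-2 and 0 rose, against 1.96% and 0.755% of all genes tested. The list median was -1.48 on the log2 scale, against 0.02 over all genes tested. In 21 of the 27 both mutant libraries lay below every wild-type library, as did 15.4% of all genes tested.

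AOC1 and AOC2 encode allene oxide cyclases. AOC1 had 92.1 and 84.2 CPM in xpo4-2, against 498, 649 and 293 CPM in wild type. The groups did not overlap, and the fall was 5.44-fold (log2 fold change -2.44, SE 0.30, adjusted p = 0.00537). AOC2, 89.9% identical to AOC1 in coding sequence, had 339 and 289 CPM in xpo4-2, against 1045, 1308 and 625 in wild type. It fell 3.16-fold (adjusted p = 0.0146), and the sources used here do not say how reads that match both copies were counted. AOS, the allene oxide synthase that acts one step earlier, had 460 and 330 CPM in xpo4-2, against 1117, 1563 and 633 in wild type, a 2.80-fold fall (adjusted p = 0.0348). The lipoxygenase LOX3, at the entry of the pathway, had 298 and 234 CPM in xpo4-2, against 921, 1378 and 557 in wild type, a 3.58-fold fall (adjusted p = 0.0331). OPR3, the reductase of the peroxisome, had 592 and 504 CPM in xpo4-2, against 1669, 2111 and 1195 in wild type, a 3.03-fold fall (adjusted p = 0.031). In these 5 genes wild-type replicate 2 was the highest library and wild-type replicate 3 the lowest of the wild type, and still above both mutant libraries. LOX2, a lipoxygenase of the same step, had 380 and 408 CPM in xpo4-2, against 988, 1230 and 512 in wild type, and did not pass (adjusted p = 0.063). JAR1, the enzyme that makes the isoleucine conjugate, had 13.5 and 34.6 CPM in xpo4-2, against 111, 78.8 and 74.5 in wild type, and did not pass either (adjusted p = 0.0534).

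Among the repressors, JAZ8 had 28.5 and 11.2 CPM in xpo4-2, against 89.9, 95.6 and 53.9 in wild type, a 4.03-fold fall (adjusted p = 0.0314). JAZ10 had 91.7 and 66.7 CPM in xpo4-2, against 308, 352 and 161 in wild type, a 3.46-fold fall (adjusted p = 0.0222). JAZ2, listed as TIFY10B in the reference, had 153 and 117 CPM in xpo4-2, against 317, 409 and 227 in wild type, a 2.35-fold fall (adjusted p = 0.0406). JAZ1 fell least of the members that passed, by 1.81-fold (adjusted p = 0.0473). Of the transcription factors, MYC3 had 23.3 and 16.4 CPM in xpo4-2, against 68.4, 42.0 and 64.1 in wild type, a 2.93-fold fall (adjusted p = 0.0204). MYC2 had 87.4 and 74.3 CPM in xpo4-2, against 310, 326 and 176 in wild type, and it did not pass (log2 fold change -1.74, adjusted p = 0.424). With the 5 compared libraries alone its adjusted p was 0.125. In 21 of 22 alternative fits it did not pass, and without xpo4-2 cpr5 replicate 3 it did (adjusted p = 0.0278). The receptor gene COI1 had a log2 fold change of 0.11 (adjusted p = 0.74).

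Known outputs of the pathway fell as well. VSP1 and VSP2 encode vegetative storage proteins that are standard jasmonate markers. VSP2 had 69.8 and 56.1 CPM in xpo4-2, against 383, 303 and 164 in wild type, a 4.50-fold fall (adjusted p = 0.00989). VSP1, 87.8% identical to VSP2 in coding sequence, fell 3.85-fold (adjusted p = 0.00799). TAT3, a tyrosine aminotransferase induced by jasmonate, fell 3.63-fold (adjusted p = 0.0172). TPS04, the geranyllinalool synthase of volatile terpene formation, had 7.39 and 7.02 CPM in xpo4-2, against 27.2, 123 and 74.1 in wild type, a 10.4-fold fall (adjusted p = 0.0146). PDF1.2, a defensin of the branch that also needs ethylene, had 1.22 and 3.33 CPM in xpo4-2, against 0.723, 0.361 and 0.526 in wild type, and did not pass (log2 fold change 2.08, adjusted p = 0.142).

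Genes that break the hormone down moved the same way as those that make it. The list of 5 was added after values were seen, and all 5 fell, against 1.96% of all genes tested, with a median of -1.77. CYP94B1 and CYP94C1 oxidise the active conjugate. CYP94B1 had 32.0 and 37.2 CPM in xpo4-2, against 171, 292 and 145 in wild type, a 5.86-fold fall (adjusted p = 0.00537). CYP94C1 fell 3.84-fold (adjusted p = 0.00905) and CYP94B3 3.41-fold (adjusted p = 0.0204). IAR3, an amidohydrolase that cleaves the conjugate, had 176 and 198 CPM in xpo4-2, against 550, 806 and 521 in wild type, a 3.35-fold fall (adjusted p = 0.00537). ILL6, a related amidohydrolase, fell 2.86-fold (adjusted p = 0.00537). JRG21, named for its regulation by jasmonate, had 5.39 and 3.29 CPM in xpo4-2, against 28.8, 40.9 and 22.6 in wild type, a 7.11-fold fall (adjusted p = 0.00668). AT5G05600 and AT2G38240, annotated as oxygenases that depend on 2-oxoglutarate, were also lower. AT5G05600 fell 3.03-fold at an adjusted p of 0.00929 and AT2G38240 fell 4.81-fold at an adjusted p of 0.0276, and they too were picked after their values were seen.

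The median of the jasmonate synthesis and response list lay between -1.66 (without xpo4-2 replicate 1) and -1.26 (without xpo4-2 replicate 2) over all alternatives. The number that passed varied much more. It was 0 with the 5 libraries alone, 1 without xpo4-2 replicate 2, 2 without xpo4-2 replicate 1, 6 without wild-type replicate 2, 7 without cpr5 replicate 1, 2 or 3, and 8 without xpo4-2 cpr5 replicate 1. Of the 5 breakdown genes, 0 passed with the 5 libraries alone, 2 without xpo4-2 replicate 2 and 4 without xpo4-2 replicate 1. In bulk tissue, fewer cells of a type and less RNA per cell cannot be told apart.

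**Figure D2:**
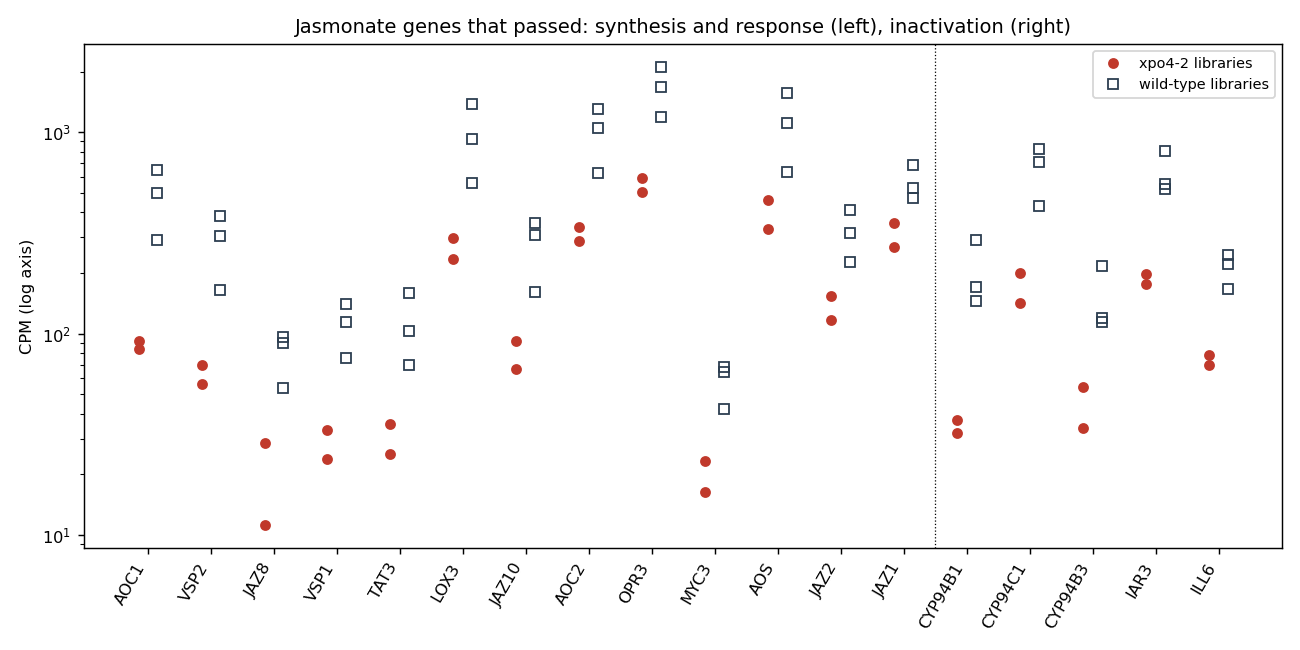
Level in CPM (log axis) of 18 jasmonate genes that passed, 13 of synthesis and response left of the dotted line and 5 of breakdown right of it. Red circles are the 2 xpo4-2 libraries and open squares the 3 wild-type libraries, and for every gene both circles lie below all squares.

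MYC factors are known to bind the G-box CACGTG. That motif was searched in the 250 bases upstream of each annotated gene start; being a palindrome, it reads the same on both strands. It was found in 13% of the genes lower in xpo4-2 (55 of 422 with a window), in 6.75% of those higher (11 of 163) and in 7.15% of all genes tested. These are descriptions with no test. Of the 13 jasmonate genes that fell, 3 held it, and their windows (TAIR10.1, RefSeq annotation, written 5′ to 3′ on the strand of the gene, motif in capitals) show where it lies relative to the gene start at the right end. JAZ8 is on the plus strand at chr1:10596102-10596351, AOS on the minus strand at chr5:17099596-17099845 and JAZ2 on the minus strand at chr1:28150447-28150696.
JAZ8: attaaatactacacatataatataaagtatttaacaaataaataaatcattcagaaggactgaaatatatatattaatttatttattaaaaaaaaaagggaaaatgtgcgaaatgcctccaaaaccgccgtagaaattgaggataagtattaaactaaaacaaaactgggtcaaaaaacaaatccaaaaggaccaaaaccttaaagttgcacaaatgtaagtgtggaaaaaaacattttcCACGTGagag
AOS: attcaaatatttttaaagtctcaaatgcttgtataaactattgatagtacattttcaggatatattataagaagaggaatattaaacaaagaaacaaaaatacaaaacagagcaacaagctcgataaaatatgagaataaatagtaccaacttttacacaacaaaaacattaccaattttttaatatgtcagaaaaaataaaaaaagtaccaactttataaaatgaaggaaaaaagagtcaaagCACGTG
JAZ2: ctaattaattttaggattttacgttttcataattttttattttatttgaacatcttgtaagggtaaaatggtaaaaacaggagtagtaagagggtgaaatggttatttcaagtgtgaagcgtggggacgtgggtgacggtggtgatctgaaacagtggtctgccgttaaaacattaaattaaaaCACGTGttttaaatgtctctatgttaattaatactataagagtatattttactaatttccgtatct
In JAZ8 and AOS the motif lies at the end nearest the gene start, and in JAZ2 farther upstream. No match in a window says only that these letters are not in it. The W-box core TTGAC was present in 47.2% of windows of lower genes and 41.7% of those of higher genes, against 45.3% of all genes tested. The core of the cold-response element, CCGAC, was present in 16.1% of windows of lower genes and 11.7% of those of higher genes, against 12.7% of all genes tested. For the evening element AAATATCT the share was 6.87% in lower genes and 3.68% in higher genes, against 4.93% of all genes tested. All were searched on both strands.

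Genes of mRNA export were among the rises. UAP56a and UAP56b are neighbouring genes on chromosome 5 (3553096 to 3557018 and 3567174 to 3571039) for the RNA helicase of the TREX complex, which loads export adaptors onto mRNA. UAP56a had 320 and 295 CPM in xpo4-2, against 123, 117 and 96.5 in wild type. UAP56b had 166 and 162 CPM in xpo4-2, against 59.98, 65.1 and 67.6 in wild type. Replicates of each genotype lay close together and the genotypes far apart, with rises of 2.74-fold and 2.56-fold (log2 SE 0.13 and 0.12, both adjusted p = 0.00106). Both passed without each library in turn, with an adjusted p of up to 0.0141 and 0.0143, but not with the 5 libraries alone (0.0906 and 0.0882). Their longest coding sequences, of 1284 and 1461 bases, were identical at 1248 of 1461 aligned columns (85.4%). Gaps from the unequal lengths count as differences there, so the shared part is more alike than this share. Part of the reads of one may therefore have been counted for the other.

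A list of 13 TREX and TREX-2 genes was added after these values were seen, and 3 rose and 1 fell, with a median of 0.28. Over all genes tested, 0.755% rose and 1.96% fell. The rises include UAP56a and UAP56b themselves, so their part in the count was known beforehand. The third rise was ALY4, an export adaptor that UAP56 loads, with 79.3 and 81.1 CPM in xpo4-2, against 49.2, 53.6 and 48.5 in wild type (1.59-fold, adjusted p = 0.0116). The fall was SAC3A, a relative of the TREX-2 scaffold Sac3 of yeast, with 5.67 and 4.66 CPM in xpo4-2, against 29.5, 26.9 and 47.1 in wild type (6.69-fold, adjusted p = 0.00669). Without xpo4-2 replicate 2 the list held 2 rises and 0 falls. Protein transport genes were measured from fixed lists. Of 19 nuclear transport receptors and Ran genes 0 passed (median 0.17), and of 10 nucleoporin genes 0 passed (median 0.22). The nucleoporin list held 21 names, and only 10 could be matched to a gene. The unmatched nucleoporins were not examined. Of 4 genes of eIF5A and its hypusination, the modification that activates it, 0 passed (median 0.31). Both eIF5A genes with the smallest p stood apart in sign, ELF5A-1 with 7.17 and 12.2 CPM in xpo4-2, against 3.01, 8 and 3.53 in wild type, and ELF5A-3 with 74.6 and 62 CPM in xpo4-2, against 81.9, 93.2 and 103 in wild type (adjusted p = 0.218 and 0.179). Over all genes tested, 4048 had an unadjusted p under 0.05 in edgeR, while DESeq2 called 649 higher and 1233 lower.

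The gene with the smallest p in the whole comparison was a nutrient transporter. NRT1.7 (AT1G69870, chromosome 1, 26315787 to 26320233) is a phloem transporter that moves nitrate out of older leaves. It had 1.45 and 2.49 CPM in xpo4-2, against 180, 261 and 233 CPM in wild type. The mutant was lower by 112-fold (log2 fold change -6.81, SE 0.42, adjusted p = 0.00018), and this gene alone among those named passed under every alternative. NRT1.5, which loads nitrate into the xylem, had 31.0 and 79.1 CPM in xpo4-2, against 6.57, 12.4 and 8.16 in wild type, a 6.10-fold rise (adjusted p = 0.00989). Here the mutant libraries differed from each other, with replicate 2 the higher. NIA2, the main nitrate reductase, had 741 and 716 CPM in xpo4-2, against 291, 340 and 447 in wild type, a 2.03-fold rise (adjusted p = 0.0147). Of 17 genes of nitrate uptake and assimilation, 2 rose and 1 fell, against 0.755% and 1.96% of all genes tested. The list median was -0.14.

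Of 21 phosphate starvation genes, 2 fell and 0 rose, with a median of -0.93, against 1.96% and 0.755% of all genes tested. Both that fell are riboregulators that bind the phosphate-responsive miR399. IPS1 had 4.50 and 2.53 CPM in xpo4-2, against 34, 72.4 and 125 in wild type, a 22.1-fold fall (adjusted p = 0.0155). AT5G03545, known as AT4, had 56.8 and 71.0 CPM in xpo4-2, against 301, 421 and 581 in wild type, a 6.79-fold fall (adjusted p = 0.0125). Wild type was itself spread here, lowest in replicate 1 and highest in replicate 3. PS2 (AT1G73010), a phosphatase induced by phosphate starvation, had 32.7 and 13 CPM in xpo4-2, against 33.6, 156 and 247 in wild type, and did not pass (adjusted p = 0.0747). SPX1, an intracellular phosphate sensor, had 67.6 and 76.7 CPM in xpo4-2, against 59.9, 137 and 200 in wild type, and the groups overlapped (adjusted p = 0.284). Without either xpo4-2 library 0 of the list passed, and without wild-type replicate 1 the number lower was 9. The motif GNATATNC, bound by the phosphate regulator PHR1, was found upstream of 7 of the 21 genes (33.3%), against 5.53% of all genes tested, and IPS1 held none in its window. In AT5G03545 it lies close to the gene start, as the window at chr5:894332-894581 on the plus strand shows (motif in capitals).
AT5G03545: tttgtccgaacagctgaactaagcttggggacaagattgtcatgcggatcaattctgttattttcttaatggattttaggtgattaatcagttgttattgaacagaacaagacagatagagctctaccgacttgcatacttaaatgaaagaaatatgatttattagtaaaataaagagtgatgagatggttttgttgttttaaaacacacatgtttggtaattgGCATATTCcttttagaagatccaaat

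Of 19 iron homeostasis genes, 4 rose and 0 fell, with a median of 0.56, against 0.755% and 1.96% of all genes tested. With the 5 compared libraries alone 0 rose, and 2 rose with a replicate block or with limma on log2(TPM + 0.5). DESeq2 called 9 higher and 1 lower. The transcription factors bHLH38, bHLH39 and BHLH100, which switch on iron uptake, were all near the counting limit in wild type. bHLH39 had 2.5 and 2.4 CPM in xpo4-2, against 0.181, 0.0601 and 0.105 in wild type (adjusted p = 0.0113). BHLH100 had 2.39 and 0.666 CPM in xpo4-2 and no count in wild type, which makes it at least 26.6-fold higher against a floor of 3 counts over the wild-type group (adjusted p = 0.0385). bHLH38 had 1.95 and 0.266 CPM in xpo4-2, against 0, 0.0601 and 0 in wild type (adjusted p = 0.0307). NAS1, which makes the metal chelator nicotianamine, had 20.4 and 12.2 CPM in xpo4-2, against 3.74, 6.07 and 3.68 in wild type, a 3.62-fold rise (adjusted p = 0.0487). The uptake transporter IRT1 had 0.222 and 0.799 CPM in xpo4-2, against 0, 0.0601 and 0 in wild type, and did not pass (adjusted p = 0.0789). The number that passed was 1 without any 1 of the 5 compared libraries or of the cpr5 libraries, and 2 when xpo4-2 cpr5 replicate 1 was left out.

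In the defence lists outside jasmonate, 0 or 1 member passed in each, against 2.72% of all genes tested in either direction. Of 21 genes of salicylic acid synthesis and signalling, 1 fell (median -0.02). This was NIMIN-2, a partner of the salicylic acid receptor NPR1, with 11.3 and 8.53 CPM in xpo4-2, against 25.8, 26.8 and 16.7 in wild type (adjusted p = 0.0494). Of 16 genes that respond to salicylic acid, 1 fell (median -0.39), the transcription factor WRKY54, with 3.5 and 2.75 CPM in xpo4-2, against 7.29, 17.56 and 15.2 in wild type (adjusted p = 0.0204). PR1, the standard marker, had 7.34 and 27.6 CPM in xpo4-2, against 3.68, 31.0 and 42.6 in wild type (log2 fold change -0.56, adjusted p = 0.755), and its sign turned without wild-type replicate 3 or xpo4-2 replicate 1. Of 26 genes of pattern-triggered immunity and 3 of the N-hydroxypipecolic acid pathway, 0 passed (medians -0.23 and 0.60). DND1, an ion channel of the CNGC family known from mutants with raised resistance, had 216 and 183 CPM in xpo4-2, against 404, 507 and 343 in wild type, a 2.1-fold fall (adjusted p = 0.0269), as the 1 of 7 TOPLESS and CNGC genes. CYP83B1, of indole glucosinolate synthesis, fell 2.05-fold (adjusted p = 0.0205) as the 1 of 11 genes in its list. ERF2, an ethylene response factor, fell 1.88-fold (adjusted p = 0.0397) as the 1 of 19 ethylene genes.

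Among stress genes, 2 of 19 in the cold and abscisic acid list fell (median -0.72), against 1.96% of all genes tested. KIN1, a cold-induced protein, had 20.9 and 24.2 CPM in xpo4-2, against 93.1, 156 and 114 in wild type, a 5.37-fold fall (adjusted p = 0.0247). RD26, a NAC transcription factor of drought response, fell 2.30-fold (adjusted p = 0.0492). In the hypoxia list 1 of 15 fell, the pyruvate decarboxylase PDC2, with 61.1 and 59.7 CPM in xpo4-2, against 104, 139 and 136 in wild type (adjusted p = 0.00905). None of 14 heat shock, 12 ER stress or 16 oxidative stress genes passed, with medians of -0.20, 0.09 and -0.20. Likewise 0 of 11 aliphatic glucosinolate, 0 of 16 flavonoid and anthocyanin and 0 of 10 SIM/SMR and KRP cell cycle inhibitor genes passed, with medians of 0.30, 0.15 and 0.18.

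Timing genes included LHY, a morning transcription factor of the circadian clock, with 0.334 and 0.133 CPM in xpo4-2, against 1.45, 2.59 and 3.74 in wild type (11.1-fold lower, adjusted p = 0.0222). Its partner CCA1 had 1.06 and 1.87 CPM in xpo4-2, against 3.19, 3.55 and 3.47 in wild type, and did not pass (adjusted p = 0.136). LHY was the only 1 of 20 clock genes to pass, against 2.72% of all genes tested in either direction. No label gives the hour of harvest. FLC, the repressor of flowering that vernalisation silences, had 0.0556 and 0 CPM in xpo4-2, against 4.7, 2.4 and 2.21 in wild type (adjusted p = 0.0158). FLC overlaps 1 other annotated gene, and the sources used here give no strand setting for the counting. In the light and growth list COP1, the ubiquitin ligase that represses light responses, had 33.4 and 28.9 CPM in xpo4-2, against 15.6, 17 and 21.8 in wild type (1.72-fold higher, adjusted p = 0.0282). TIR1, an auxin receptor, rose 1.42-fold (adjusted p = 0.0365), and DIN11, a dark-inducible senescence gene, rose 3.88-fold (adjusted p = 0.044). Each was the single member that passed, of 23 light and growth, 22 auxin and 16 senescence genes. Over all genes tested, 0.755% rose. The medians of these lists were 0.06, 0.52 and -0.11.

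No gene of the photosynthesis and cell division lists passed. Over all genes tested, 11180 of 21580 had a positive log2 fold change, and 16.4% lay higher in xpo4-2 with no overlap between groups. Of 26 photosystem and antenna genes 24 had a positive log2 fold change (median 0.37), and in 11 both mutant libraries lay above every wild-type library. The summed level of the list overlapped between the groups, at 71462 and 58814 CPM in xpo4-2, against 62443, 55234 and 38209 in wild type. Of 14 Calvin cycle genes 12 were positive (median 0.36). Of 25 mitotic cell cycle genes 21 were positive (median 0.50), and 15 did not overlap between groups. ORC6, of the replication origin complex, had 5.12 and 8.13 CPM in xpo4-2, against 1.75, 3.01 and 2.79 in wild type (adjusted p = 0.0717). SYP111, the syntaxin of cell plate formation also called KNOLLE, had 45.9 and 32.9 CPM in xpo4-2, against 27.1, 24.2 and 20.9 in wild type (adjusted p = 0.0812).

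Marker lists gave the tissue makeup as far as transcripts show it. Of 15 root and root hair markers listed, 13 were matched to a gene and tested. Among them 12 had a positive log2 fold change, as did 11180 of all 21580 genes tested. The list median was 1.18, with 0 passing. SCR, of the root endodermis, had 20.2 and 22.6 CPM in xpo4-2, against 14.1, 14.4 and 15.5 in wild type (adjusted p = 0.0791). PIP2;4, a root aquaporin, had 8.62 and 17.63 CPM in xpo4-2, against 0.844, 5.89 and 6.42 in wild type (adjusted p = 0.195). The summed level of the root list was 426 and 540 CPM in xpo4-2, against 379 to 545 in wild type. For leaf mesophyll the sums were 23792 and 18869 CPM in xpo4-2, against 11976 to 19066 in wild type. Trichome, stomatal, vascular and meristem markers had 0 genes passing of 9, 10, 12 and 5, with medians of 0.05, 0.06, 0.54 and -0.37. Of the seed storage list only SESA1 was abundant enough to test, with 18.8 and 7.46 CPM in xpo4-2, against 49.7, 67.8 and 38.1 in wild type, and it fell (adjusted p = 0.0291). The part of tissue proportions in the results above was not tested.

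**Figure D3:**
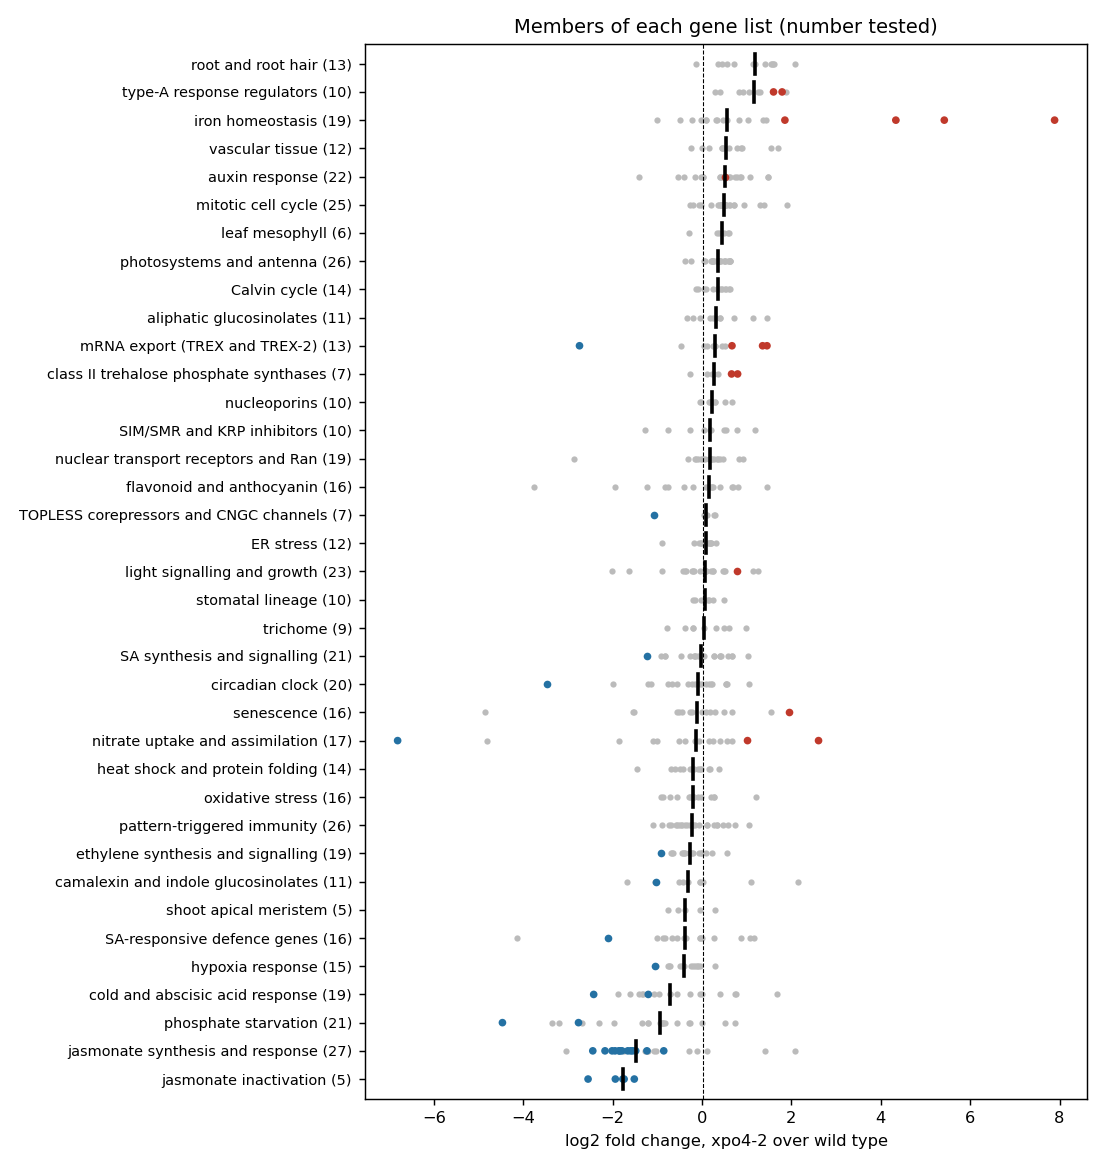
Each row is 1 of 37 gene lists with at least 5 genes tested, ordered by its median, and each point is a member placed by its log2 fold change of xpo4-2 over wild type. Red and blue points passed, grey did not, the black bar is the median and the dashed line the median of all genes tested. The jasmonate lists lie lowest, with medians of -1.48 and -1.77. The one at -1.77 was added after values were seen, so its place follows from how it was picked.

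Further genes were named by rank. By smallest p the falls were led by NRT1.7, GCL1, AT5G53420, AT1G80130, AT5G39020 and AT4G36648, each with an adjusted p of 0.00106 or less. GCL1, a LanC-like protein, had 16.3 and 14.5 CPM in xpo4-2, against 63.2, 94.8 and 66.6 in wild type. AT5G53420, a CCT motif protein, had 20.6 and 20.2 CPM in xpo4-2, against 106, 72.4 and 103 in wild type. AT4G36648, a non-coding RNA, had 70.9 and 79.9 CPM in xpo4-2, against 297, 267 and 269 in wild type. In these genes the xpo4-2 libraries lay close together and far below every wild-type library. Wild type was more spread in GCL1 and AT5G53420 than in AT4G36648. They were picked for a small p, so a wide gap between the groups comes with that choice. AT1G80130, with tetratricopeptide repeats, and AT5G39020, a receptor-like kinase, fell 5.21-fold and 3.28-fold. By smallest p the rises were CPL2, UAP56a, UAP56b, AT4G33720, AT1G75945 and RR5.

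By size, AT4G33720, a secreted protein of the CAP family, had 21.4 and 44.1 CPM in xpo4-2, against 2.23, 3.19 and 3.58 in wild type, a 10.9-fold rise (adjusted p = 0.0011). AT3G05950, a cupin, had 1.67 and 3.77 CPM in xpo4-2, against 0.121, 0 and 0.0526 in wild type. AT1G75945 had 5.23 and 5.55 CPM in xpo4-2, against 0, 0.0601 and 0 in wild type. DSEL, a lipase of seedling establishment, FRO5, a metal reductase, AT4G39675, AT4G13620, AT5G22930 and AT5G10210 rose between 6.10-fold and 7.19-fold. On the other side AT2G38790 had 1.00 and 1.78 CPM in xpo4-2, against 24.7, 39.8 and 27.6 in wild type, a 21.7-fold fall (adjusted p = 0.00353). AT1G58602, a disease resistance gene of the NB-ARC class, had 0.945 and 0 CPM in xpo4-2, against 19.0, 12.3 and 30.7 in wild type (adjusted p = 0.0216). The metacaspase MC7 (37.3-fold), the glucosyltransferase UGT73C6 (26.7-fold) and AT5G44565 (10.4-fold) also fell.

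Some genes had counts in only 1 of the compared genotypes. CPL2, a phosphatase of the RNA polymerase II tail, had 16.3 and 32.7 CPM in xpo4-2 and no count in the 3 wild-type libraries, at least 427-fold higher by the floor of 3 counts over the group (adjusted p = 0.00106). It was also present in cpr5, at 19.6, 11.6 and 7.85 CPM, so among the 4 genotypes wild type was the one without it. RLP46, a receptor-like protein, had no count in xpo4-2, against 1.51, 2.77 and 5.10 CPM in wild type, at least 42.2-fold lower (adjusted p = 0.00832). BTI1, a reticulon of the endoplasmic reticulum, had none in xpo4-2, against 3.68, 3.67 and 7.31 CPM in wild type, at least 66.0-fold lower (adjusted p = 0.0113). Another 4 genes at 0 in wild type (AT1G58983, PRA1.F4, GLR1.4 and AT5G10540) had 153 to 272 counts over the xpo4-2 libraries and did not pass, and 4 at 0 in xpo4-2 (AT5G10960, 2A6, AT1G22800 and AT2G16750) had 234 to 313 counts over the wild-type libraries and did not pass either. Such switches also occurred between libraries of 1 genotype. The ubiquitin ligase UPL2 had 1 count in xpo4-2 replicate 1 and 2912 in replicate 2, and the long non-coding RNA AT2G08665 had 907 and 0. TTL3, ABCB1, VCR, AT4G29790 and AT2G05250 had 0 counts in replicate 1 and 619 to 887 in replicate 2, and TRS120, AT1G42470, AT5G10540, AT2G08780 and AT2G39580 had 237 to 298 in replicate 1 and 0 in replicate 2. Reads given to another transcript and a real difference cannot be told apart for a gene that is at 0 in a whole library.

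By place, the share of tested genes that passed ran from 2.46% on chromosome 1 to 3% on chromosome 4. Within 1 Mb of XPO4, 2 genes were higher and 7 lower of 525 tested (1.71%), against 2.72% over all genes.

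The double mutant xpo4-2 cpr5 and cpr5 give the same mutation in other libraries, and that comparison shares no library with xpo4-2 against wild type. Both comparisons come from 1 fit and share its estimate of spread for each gene, so their calls are not fully independent. There 8.82% of genes were higher and 12.9% lower. Without scaling beyond the library total these shares were 19.7% and 8.28%, and the median log2 fold change over all genes moved to 0.27, against 0.01 with TMM. XPO4 itself had 2.09, 0 and 2.27 CPM in xpo4-2 cpr5, against 22.9, 18.3 and 27.7 in cpr5 (adjusted p = 0.00715). Of the 423 genes lower in xpo4-2, 209 (49.4%) were also lower in xpo4-2 cpr5 against cpr5, and 37 were higher there. Of the 163 genes higher in xpo4-2, 49 (30.1%) were also higher there, and 20 were lower. Seen from the other side, the shared genes were 7.52% of the falls and 2.57% of the rises in xpo4-2 cpr5 against cpr5. Without scaling beyond the library total, 40.2% of the falls and 39.9% of the rises in xpo4-2 were shared. With limma on log2(TPM + 0.5) these shares were 41.1% and 40%, so the gap between falls and rises depended on the setting. The 258 shared genes became 19 without xpo4-2 replicate 2, 53 without xpo4-2 replicate 1 and 102 without wild-type replicate 2. They became 149, 111 and 146 without cpr5 replicate 1, 2 and 3, and 153 without xpo4-2 cpr5 replicate 1. The difference between the effects, tested by the interaction term, passed for 144 of the 423 (34%) and 73 of the 163 (44.8%), against 8.71% of all genes tested (3.2% with a positive and 5.51% with a negative term). That term contains the contrast by which these genes were picked, so its share among them is a description.

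Jasmonate genes fell in both settings. In xpo4-2 cpr5 against cpr5, 16 of the 27 fell and 2 rose, against 12.9% and 8.82% of all genes tested. The list median was -1.2. AOC1 had 33.5, 32.7 and 38.1 CPM in xpo4-2 cpr5, against 304, 324 and 238 in cpr5 (log2 fold change -3.05, adjusted p = 0.000105). VSP2 had 7.97, 10.14 and 10.7 CPM in xpo4-2 cpr5, against 240, 251 and 205 in cpr5 (log2 fold change -4.60, adjusted p = 4.06e-05). MYC3 went the other way, with 87.4, 109 and 77.4 CPM in xpo4-2 cpr5, against 48.1, 62.4 and 39.6 in cpr5 (adjusted p = 0.0242). The mRNA export genes also moved alike. UAP56a had 323, 298 and 325 CPM in xpo4-2 cpr5, against 158, 155 and 165 in cpr5 (log2 fold change 0.99, adjusted p = 0.000374). UAP56b had 202, 166 and 186 CPM in xpo4-2 cpr5, against 79.9, 84.0 and 93.9 in cpr5 (log2 fold change 1.1, adjusted p = 0.000201). ALY4 rose and SAC3A fell there too (adjusted p = 0.00245 and 0.0025), as did FLC (adjusted p = 0.0444). COP1, KIN1, RD26, PDC2, DND1, GCL1 and SESA1 also passed there with the direction they had in xpo4-2.

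NRT1.7 and IPS1 had the opposite direction in the cpr5 background. NRT1.7 had 211, 109 and 233 CPM in xpo4-2 cpr5, against 11.3, 10.9 and 10.9 in cpr5 (log2 fold change 4.06, adjusted p = 6.02e-05). It was thus low in both single mutants and near the wild-type level in the double mutant. IPS1 had 20.6, 20.4 and 7.02 CPM in xpo4-2 cpr5, against 1.49, 4.92 and 3.62 in cpr5 (log2 fold change 2.25, adjusted p = 0.0208). Of the 21 phosphate starvation genes 9 rose and 0 fell there, against 8.82% and 12.9% of all genes tested, with a median of 1.23. The 26 photosystem and antenna genes, of which 0 passed in xpo4-2, all fell in xpo4-2 cpr5 against cpr5, with a median of -1.91. The interaction term passed for 24 of them, against 8.71% of all genes tested. Of the iron genes that rose in xpo4-2, bHLH39 had 3.69, 3.04 and 1.58 CPM in xpo4-2 cpr5, against 2.13, 0.88 and 1.63 in cpr5, and did not pass there (adjusted p = 0.258).

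**Figure D4:**
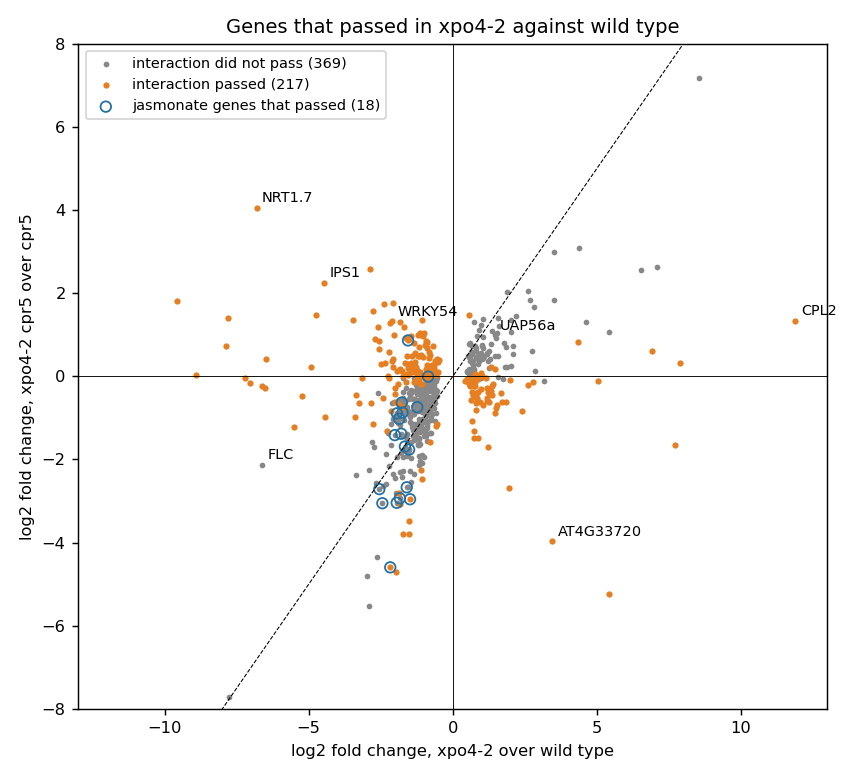
Each point is 1 of the 586 genes that passed in xpo4-2 against wild type, with that log2 fold change on the horizontal axis and the log2 fold change of xpo4-2 cpr5 over cpr5 on the vertical axis. Orange points passed the interaction term, ringed points are jasmonate genes that passed, the dashed line marks equal effects, and NRT1.7, IPS1 and WRKY54 lie at the upper left with opposite signs.

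**Figure D5:**
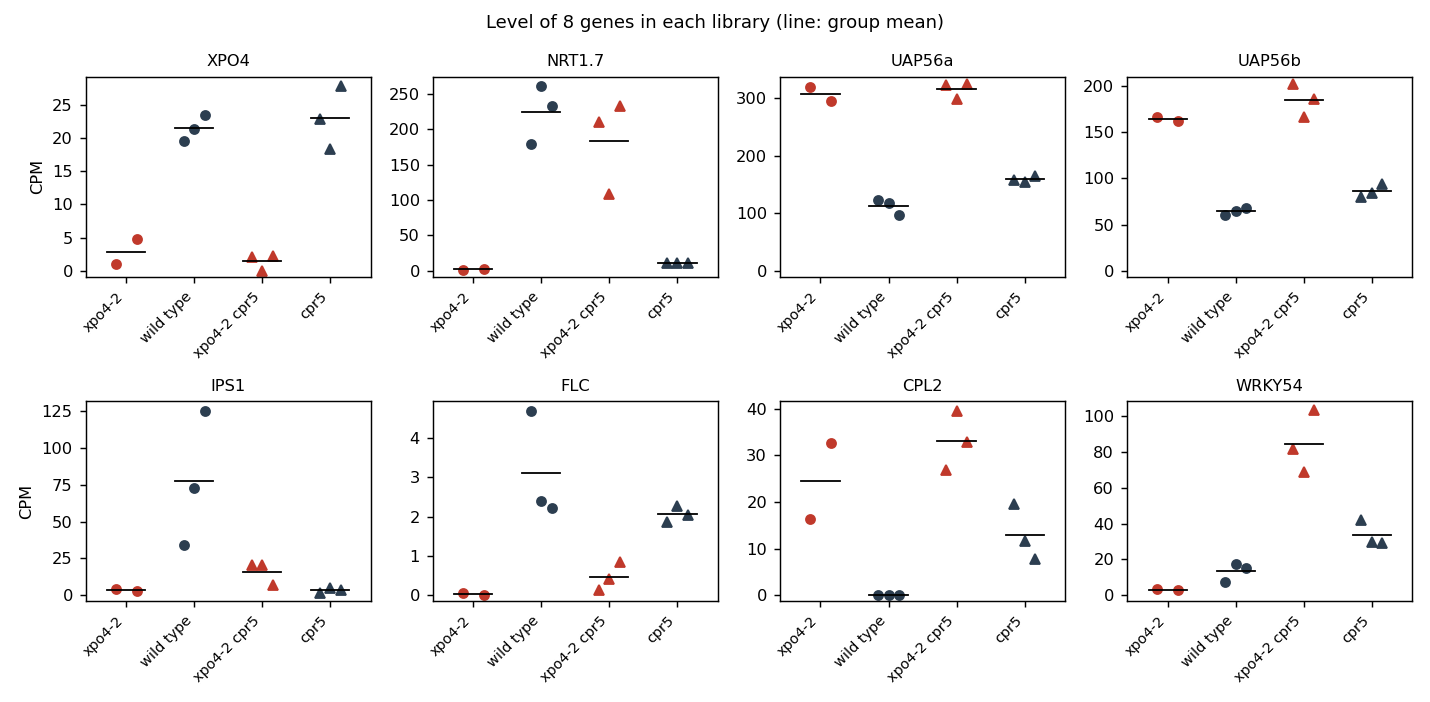
Level in CPM of 8 genes in each library of xpo4-2, wild type, xpo4-2 cpr5 and cpr5, with 1 point per library (circles without and triangles with the cpr5 mutation) and a line at the group mean. UAP56a and UAP56b are high in both lines with xpo4-2, while NRT1.7 is low in xpo4-2 and cpr5 and high in xpo4-2 cpr5 and wild type.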

How the data were processed

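Strand-specific mRNA libraries of whole seedlings were compared between xpo4-2 and wild type, with cpr5 and xpo4-2 cpr5 in the same fit. Gene counts, deposited as whole numbers for 22160 genes and 11 libraries, summed to 16922732 to 23088104 in each library. The submitters' processing notes list TAIR10 as the genome build and name HTSeq 0.6.1p1 and HISAT2 2.0.4, with no account of what each did. The deposited TPM table lists 71164 transcripts, 17151 of them assembled models that took 10.4% to 12.0% of TPM, and is named for kallisto, whose version is not stated. Summed TPM reached 1 in 0 of the 7378 cases where a gene had 0 counts in a library, so the TPM values are no independent check. Counts were used as deposited, and the sources used here state neither a strand setting nor how reads matching several genes were treated.

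Genes were filtered with filterByExpr (580 removed, 21580 tested), scaled with TMM and tested with edgeR 4.0.16 in R 4.3.3 by the quasi-likelihood test (glmQLFit, glmQLFTest) in 1 fit of 11 libraries with a term per group. The biological coefficient of variation was 0.305. The pass mark was an adjusted p (Benjamini-Hochberg, all genes tested) under 0.05. An exact permutation of 2 against 3 libraries cannot reach 0.05. The interaction term subtracts the xpo4-2 effect seen in wild type from that seen in cpr5. Fold changes against a group at 0 are bounds against 3 counts over that group, and floors cover counting error only. Standard errors (SE) were derived from each F statistic. Names came from the TAIR10.1 gene table of RefSeq, with 22011 genes matched, and upstream windows from that genome. Scripts were tested on simulated counts.

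The members and gene lists were chosen with earlier results of these data known, and 4 lists (mRNA export, jasmonate inactivation, type-A response regulators, class II trehalose phosphate synthases) were added after values were seen. Genes were named by rule: XPO4 and CPR5; the 12 largest changes per direction among genes that passed, had at least 1 CPM on average and did not overlap; list members that passed; the 6 smallest p per direction; genes at 0 in 1 group; and the largest differences between the xpo4-2 libraries. A few others were picked by eye, among them further jasmonate genes. Alternatives were RLE factors, no scaling, other filters, DESeq2 1.42.0, limma 3.58.1 on log2(TPM + 0.5 or 0.1), robust estimation, a replicate block, the 5 libraries alone, other thresholds and each library left out.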

Additional observations from a re-analysis of the deposited data

Results flagged for a closer look

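For 39 of the 102 genes named in the text and tested, the effect of xpo4-2 differed between the cpr5 and wild-type backgrounds, with an adjusted p under 0.05 for the interaction term in edgeR's quasi-likelihood test. Over all genes tested, 8.71% passed that term. Most of the 102 were named for passing in xpo4-2 against wild type, a contrast the interaction contains, so the count is a description. Each gene is followed by its interaction on the log2 scale and, in brackets, by the log2 fold change of xpo4-2 cpr5 over cpr5 and that of xpo4-2 over wild type. In 25 of the 39 these fold changes had opposite signs. For CPL2, BHLH100, RLP46 and BTI1, at 0 counts in a whole group, the fitted value depends on the prior count and is no bound.

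Genes with a negative fold change in xpo4-2 and a positive one in the double mutant included members of the phosphate, clock, nitrate and defence lists. The interaction was largest for BTI1 11.39 (1.82 and -9.57), NRT1.7 10.87 (4.06 and -6.81), RLP46 8.97 (0.04 and -8.93) and IPS1 6.72 (2.25 and -4.47). Next came UGT73C6 6.22 (1.48 and -4.74), LHY 4.82 (1.36 and -3.47), AT5G03545 4.34 (1.58 and -2.76) and AT1G80130 4.12 (1.74 and -2.38). They were followed by PS2 4.07 (1.40 and -2.68), WRKY54 3.42 (1.33 and -2.1), AT5G53420 2.79 (0.59 and -2.20) and SPX1 2.63 (1.76 and -0.87). Then came MYC3 2.42 (0.87 and -1.55), NIMIN-2 2.22 (1.00 and -1.22) and ERF2 1.09 (0.18 and -0.91). NRT1.7 had the smallest adjusted p of the 39 (1.41e-05).

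Genes with a positive fold change in xpo4-2 and a negative one in the double mutant included members of the iron, nitrate and senescence lists. The interaction was largest for AT3G05950 -10.65 (-5.23 and 5.42), AT1G75945 -9.36 (-1.65 and 7.72), AT4G33720 -7.41 (-3.97 and 3.45) and IRT1 -6.00 (-1.65 and 4.35). Then came DIN11 -4.65 (-2.69 and 1.96), AT4G39675 -2.90 (-0.13 and 2.78), NRT1.5 -2.81 (-0.20 and 2.61) and NAS1 -2.47 (-0.62 and 1.86). Smaller ones were those of SYP111 -1.49 (-0.78 and 0.71) and TPS11 -1.03 (-0.37 and 0.66).

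With the same sign in both backgrounds and a smaller size in cpr5 there were further genes. These were CPL2 -10.55 (1.34 and 11.90), BHLH100 -7.56 (0.33 and 7.89), MC7 4.75 (-0.47 and -5.22) and AT1G58602 4.29 (-1.23 and -5.52). To them belonged bHLH39 -3.5 (0.84 and 4.34), AT2G38790 3.46 (-0.98 and -4.44), AT5G44565 2.4 (-0.97 and -3.38) and JRG21 2.19 (-0.64 and -2.83). The remainder were AT4G36648 1.19 (-0.69 and -1.88), AT5G39020 0.98 (-0.74 and -1.71) and GCL1 0.97 (-1.30 and -2.28). In contrast, the fall was larger in the cpr5 background for 3 genes of this set. Those were SESA1 -2.73 (-4.71 and -1.99), VSP2 -2.43 (-4.60 and -2.17) and AOS -1.47 (-2.96 and -1.48).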

How the results depend on the processing

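The main counts were 163 genes higher and 423 lower in xpo4-2, and 258 genes that also passed with the same sign in xpo4-2 cpr5 against cpr5. With the 5 compared libraries alone they were 0 higher and 1 lower, with 2637 genes at an unadjusted p under 0.05. DESeq2 gave 649 higher, 1233 lower and 673 shared. Leaving out each library in turn gave 12 to 225 higher, 44 to 545 lower and 19 to 384 shared. Requiring at least 2-fold left 84 higher, and an adjusted p under 0.1 gave 432 higher and 826 lower. RLE factors, no scaling, the other filters, robust estimation and limma kept each count within 1.5 times the main one. XPO4 passed with limma on log2(TPM + 0.5), with or without a filter (log2 fold change -2.35, adjusted p = 0.0269 and 0.0287), and without xpo4-2 cpr5 replicate 2 (-2.87, adjusted p = 0.0294). It ran from -4.41 to -2.16 with a library left out, and its adjusted p over all alternatives was 0.0269 to 0.393. PR1, which did not pass, turned sign without wild-type replicate 3 (0.00465) and without xpo4-2 replicate 1 (0.0967), in a range of -1.81 to 0.0967 on the log2 scale with a library left out. AT5G10540 and AT1G58983, each counted in a single xpo4-2 library, went to 0 without that library, and ran up to 11.14 and 10.89 without the other one, fitted values that depend on the prior count. The other named genes tested kept their direction under the alternatives run.

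The replicate numbers of xpo4-2 and wild type come from the sample titles, which do not say whether same-numbered libraries form pairs. Deviations of same-numbered libraries correlated at 0.214 and 0.0327, and those of xpo4-2 replicate 2 and wild-type replicate 3 at 0.193. With 2 xpo4-2 libraries the deviations of one mirror those of the other, so these values cannot decide on a pairing. A replicate block gave 121 higher, 348 lower and 245 shared. With 1 xpo4-2 library left out, the lone library was assumed to vary like those of the other groups. Depth limits the genes at or near 0, such as BHLH100 and FLC, where a single count is 0.0433 to 0.0591 CPM before scaling. Fewer libraries leave fewer degrees of freedom, but counts fell with some libraries left out and rose with others. Causes of the changes between settings were not tested.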

Other observations

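Type-A response regulators, which cytokinin induces and which dampen its signalling, were measured in xpo4-2. The list of 10 was added after values were seen. All 10 had a positive log2 fold change, as did 11180 of all 21580 genes tested, the median was 1.16, and 2 rose, against 0.755% of all genes tested. RR5 had 12 and 15.1 CPM in xpo4-2, against 4.94, 4.69 and 3.74 in wild type (3.03-fold, adjusted p = 0.00696). ARR9 had 8.17 and 8.62 CPM in xpo4-2, against 2.29, 2.22 and 2.74 in wild type (3.46-fold, adjusted p = 0.0158). ARR7 had 32.6 and 21.4 CPM in xpo4-2, against 9.77, 15.5 and 8.52 in wild type, and did not pass (adjusted p = 0.116). In xpo4-2 cpr5 against cpr5 1 of the 10 rose, RR5, against 8.82% of all genes tested, and the median was 0.19.

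Class II trehalose phosphate synthases, regulatory relatives of the enzyme that makes trehalose 6-phosphate, were listed in the same way, and 2 of 7 rose, against 0.755% of all genes tested. TPS9 had 110 and 112 CPM in xpo4-2, against 62.6, 61.9 and 67.1 in wild type (1.74-fold, adjusted p = 0.035). TPS11 had 144 and 152 CPM in xpo4-2, against 82.5, 102 and 97.3 in wild type (1.58-fold, adjusted p = 0.0216). In xpo4-2 cpr5 against cpr5 TPS9 rose (log2 fold change 0.68, adjusted p = 0.0108) and TPS11 fell (log2 fold change -0.37, adjusted p = 0.0354).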
